A study of Mus musculus with 3 samples.

Results

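Wnt ligands, their receptors and the modulators of the pathway were examined in sorted endothelial cells of the adult mouse renal medulla. The genes were chosen by name: Wnt ligands, Frizzled receptors, Dkk and Sfrp inhibitors, R-spondins, Lgr4 to Lgr6, and further genes of the same pathway listed singly. A probe set was used where it carried 1 gene, and the probe set with the highest mean stood for the gene. This gave 62 Wnt pathway genes of 19938 genes measured. The rule itself reads gene names and uses measured values only to choose among probe sets of a gene.

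The cells came from adult male FVB/N mice that carry the transgene Tg(TIE2GFP)287Sato, in which the Tie2 promoter drives GFP in endothelium. Medullae were dissected, digested with collagenase and sorted for green fluorescence. All 3 arrays belong to this 1 group, each array holds RNA from a pool of 2 kidneys, and the series holds no other group, so a level was set against a limit and not against another cell type. The array was an Affymetrix Mouse Gene 1.0 ST chip, and levels are given as the deposited log2 values, an RMA summary per the study's methods, with the raw level (the antilog) in arbitrary units.

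Wnt proteins are lipid-modified signals that act at short range. In the canonical branch a Wnt bridges a Frizzled receptor and the co-receptor LRP5 or LRP6, the complex that destroys β-catenin is held back, and β-catenin enters the nucleus and acts with TCF/LEF factors. In endothelium the pathway is best known from the vessels of the mouse brain and retina, where WNT7 ligands act through RECK and GPR124, and Norrin acts through FZD4, LRP5 and TSPAN12. In the developing mouse kidney WNT9B and WNT4 induce nephrons and WNT7B shapes the medulla.

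The genes of β-catenin, its destruction complex and the TCF/LEF factors were above the array background in these cells, as were most co-receptors and other receptors. Of the secreted inhibitors 8 of 10 were under it, Dkk4 by only 0.01 log2 units, and the ligands and Frizzled receptors were divided. Of 14 inhibitors outside these families 10 were at or above it in every array. Of all genes 54.8% were at or above it in every array, and 8503 of 19938 were under it in every array. These shares were not tested against each other. Ctnnb1, Tcf7l2, Fzd6, Lrp6, Ryk, Tcf7l1, Reck, Fzd4, Apc, Lrp5, Wnt4, Dkk2, Lef1 and Axin2 were the 14 Wnt genes whose mean was at least 2-fold over that background, a level that 29.7% of all genes reached. By role these were 4 of 6 co-receptors and other receptors and 3 of 4 genes of β-catenin and its destruction complex. They also included 3 of 4 in the TCF/LEF group, 2 of 10 Frizzled receptors, 1 of 19 ligands and 1 of 10 secreted inhibitors. Of the R-spondin arm there were 0 of 9 genes. Wnt4 had another probe set, which was under the background in every array, and Axin2 was at 2.0-fold. The calls of Ctnnb1, Dkk2 and Axin2 above the background were each lost with 1 array or another left out.

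Each level was set against 2 limits. The first was a raw level of 100 units, log2 6.64, below which the study set probe sets aside. The second, called the background limit here, was the 95th percentile of 1245 probe sets of olfactory, vomeronasal and bitter taste receptors, log2 7.95 or 247 units. It is an approximate floor for genes that a kidney endothelial cell would hardly use. Probe sets differ in how brightly they bind, so each gene is read against the limits and not against another gene.

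Of the 62 Wnt genes, 61 were at or above 100 units in every array, where 85.4% of all genes were. At the background limit the Wnt genes stood as the genes at large did. In every array 34 (54.8%) were at or above it, the same share as the 54.8% of all genes. Under it in every array were 26, beside 8503 of all 19938 genes. Wnt2 and Wnt2b lay on both sides. The median Wnt gene had a mean level of 8.04, against 8.15 for all genes, and 18 Wnt genes had means within 0.25 log2 units of the background limit.

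**Figure D1:**
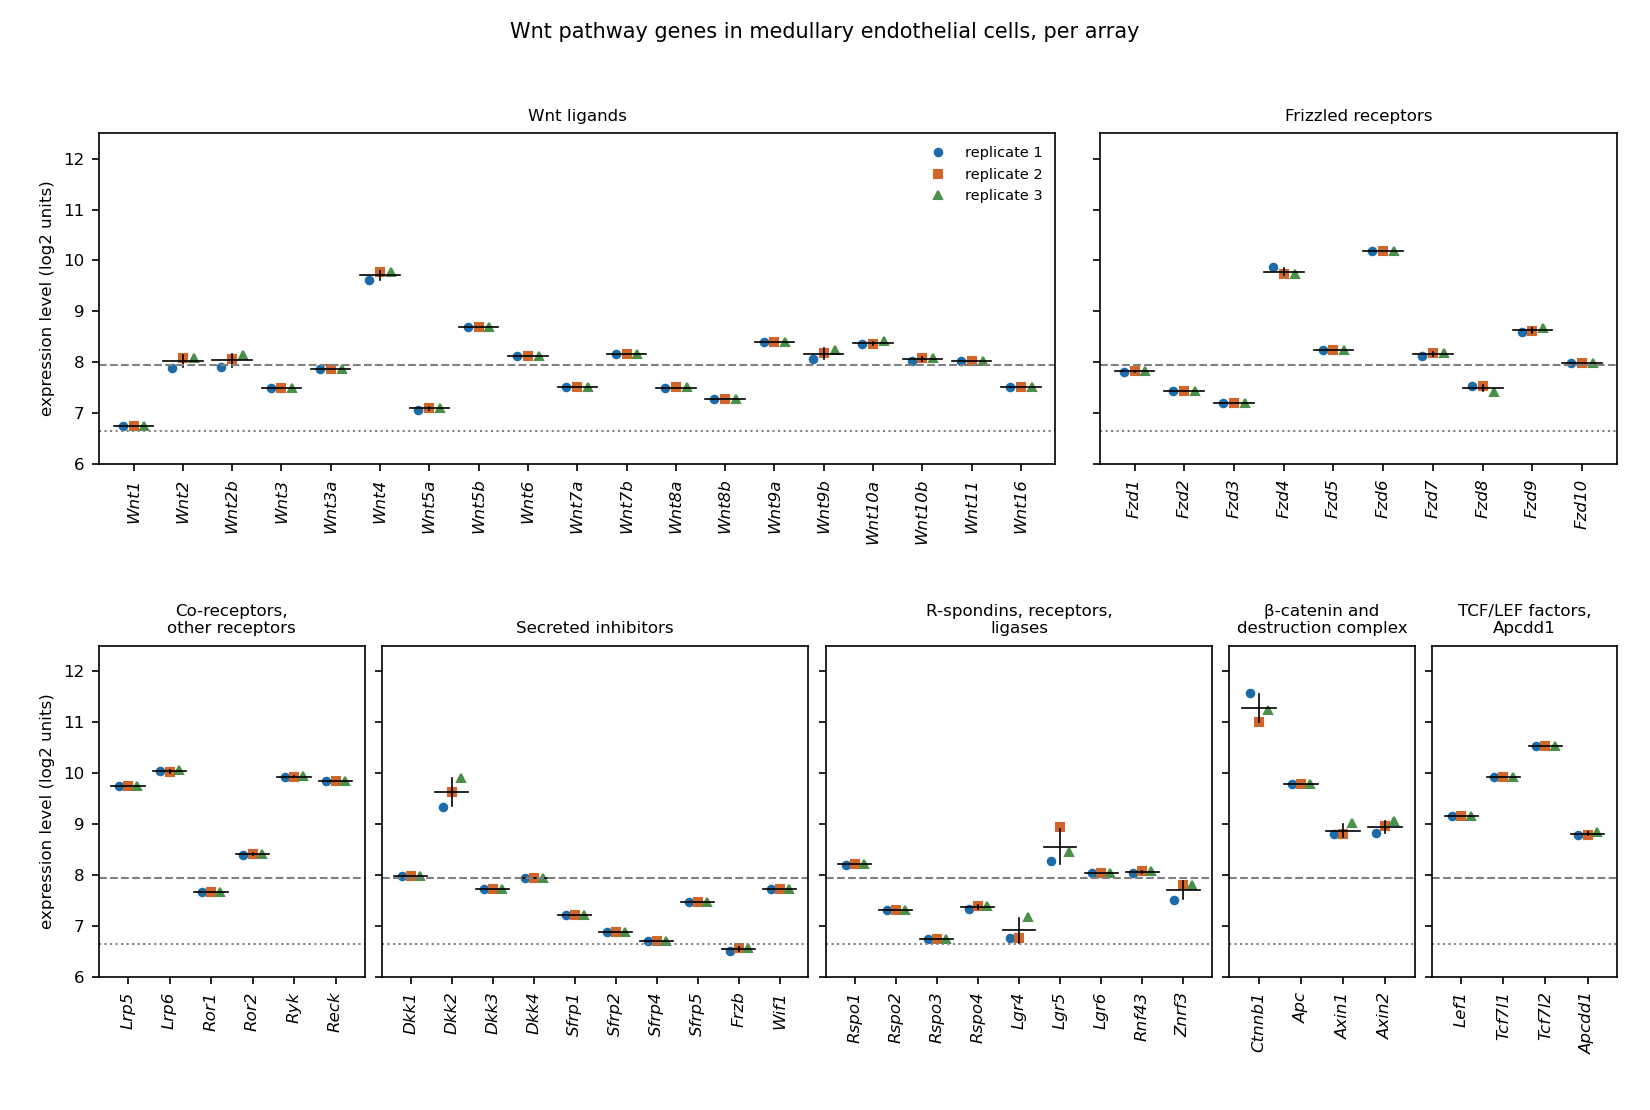
Expression level (log2 units) of the 62 Wnt pathway genes in each of the 3 arrays, in panels by role. Points are arrays, horizontal bars are means and vertical bars are SD (n = 3), with the dashed line at the background limit of 7.95 and the dotted line at 100 units (6.64). The 4 genes of the TCF/LEF panel lie above the dashed line, while 8 of the 10 secreted inhibitors lie under it in all 3 arrays.

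Precision was limited by the 3 arrays, and by how the deposited values repeat. Of all genes 46.3% had exactly the same deposited value in every array, and 33 of the 62 Wnt genes (53.2%) did. Such genes carry no measured error. They also pull the variance that limma borrows across genes towards 0, so that Dkk4, at 7.94 in all 3 arrays and just under the limit, counted as below it. The test was therefore also run with the borrowed variance taken only from genes with 3 different values, called the second prior here. With it Dkk4 was not told apart from the limit (adjusted p = 0.896). For Wnt genes with 1 value in all arrays only the p with the second prior is given below, and 20 Wnt genes had all 3 values in common with some other probe set. The sources used here describe no step after RMA that would make values repeat in this way, and whether there was one was not tested, so a raw level here is the antilog of the deposited value and may differ from RMA's own. The arrays are labelled as replicates, each from a pool. For genes whose arrays differ, p-values rest on the spread between them together with the variance borrowed from other genes. For the 33 Wnt genes with 1 value they rest on borrowed variance alone and measure no spread between these arrays.

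In limma's test against 100 units, 60 Wnt genes were above the limit, as 84.5% of all genes were, and Frzb alone was below it, as 13.7% of all genes were. Frzb was not told apart from 100 units with the second prior (adjusted p = 0.157), nor without replicate 2 or replicate 3 (adjusted p = 0.148 in both cases). Against the background limit 33 Wnt genes were above and 25 below, beside 52.4% and 41.5% of all genes. With the second prior 27 were above and 22 below, beside 49.7% and 38% of all genes, and 13 were not told apart from it.

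The 19 Wnt ligands lay on both sides of the background limit, with 9 at or above it in every array and a median of 8.02. Wnt4 stood out. It measured 9.61, 9.77 and 9.77 in the 3 arrays, all well above the limit, a mean of 9.71 ± 0.09 (SD, n = 3) that was 3.4-fold over the limit (adjusted p = 0.00059). Wnt4 was the only Wnt gene with more than 1 probe set, and its other probe set gave 7.74, 7.84 and 7.84, below the limit in every array (adjusted p = 0.0347). The level of Wnt4 therefore rests on which probe set is read.

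Wnt5b, a ligand known mainly for signalling without β-catenin, measured 8.69, 8.69 and 8.70, 1.68-fold over the limit (adjusted p = 2.45e-06, and 0.000499 with the second prior). Wnt9a was at 8.40 in all 3 arrays (adjusted p = 0.00251 with the second prior) and Wnt10a at 8.36, 8.36 and 8.41 (adjusted p = 0.00117). The arrays of each of these 3 ligands lay above the limit and within 0.05 of each other. Wnt7b, the ligand of the collecting duct that shapes the medulla, was at 8.17 in every array, 1.17-fold over the limit (adjusted p = 0.0242 with the second prior). Wnt9b, the ligand with which the ureteric bud induces nephrons, measured 8.06, 8.19 and 8.25, 1.16-fold over it (adjusted p = 0.0445). That call for Wnt9b was lost without any 1 of the arrays, with adjusted p of 0.0679 without replicate 1, 0.256 without replicate 2 and 0.211 without replicate 3.

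Other ligands could not be placed. Wnt2 measured 7.88, 8.09 and 8.09 (adjusted p = 0.395) and Wnt2b 7.91, 8.06 and 8.15 (adjusted p = 0.297), with replicate 1 under the limit and the other arrays over it in both. Without replicate 1, Wnt2 had the same value in the remaining arrays, so that no error was left to test it with. Wnt10b at 8.02, 8.09 and 8.09 passed with the first prior (adjusted p = 0.0219) and not with the second (adjusted p = 0.134). Wnt6 at 8.12, Wnt11 at 8.02 and Wnt3a at 7.87 in every array were not told apart from the limit with the second prior (adjusted p = 0.0525, 0.298 and 0.306).

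The remaining 7 ligands were below the limit in every array under both priors. Wnt1, the founding member of the family, was at 6.74 in all arrays, 107 units (adjusted p = 0.000122 with the second prior). Wnt5a, the usual activator of the receptor ROR2, measured 7.06, 7.11 and 7.11 (adjusted p = 0.000226). Wnt8a measured 7.50, 7.51 and 7.51 (adjusted p = 2.31e-05, and 0.00267 with the second prior). Wnt3 at 7.49, Wnt7a at 7.52, Wnt8b at 7.27 and Wnt16 at 7.51 held 1 value each. Wnt7a, one of the ligands that act on brain endothelium, was thus 0.74-fold of the limit (adjusted p = 0.00294 with the second prior), on the other side of it from Wnt7b.

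Of the 10 Frizzled receptors, the transmembrane proteins that bind Wnts, 6 were at or above the background limit in every array. Fzd6, a receptor best known for planar cell polarity in mouse skin, was at 10.18 in all 3 arrays, 1159 units and 4.7-fold over the limit (adjusted p = 3.32e-05 with the second prior). Fzd4, the receptor for Norrin on retinal endothelium, measured 9.87, 9.74 and 9.74, a mean of 9.78 ± 0.07 (SD, n = 3) and 3.57-fold over the limit (adjusted p = 0.000342). These were the Frizzled receptors at least 2-fold over it.

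Fzd9 measured 8.59, 8.62 and 8.68, 1.61-fold over the limit in the mean (adjusted p = 0.00108). Fzd7 measured 8.12, 8.18 and 8.19 (adjusted p = 0.00769), and Fzd5, a receptor with a part in placental vessel growth in mice, was at 8.25 in every array (adjusted p = 0.00884 with the second prior). All of these arrays were above the limit, but Fzd7 was not told apart from it without replicate 2 (adjusted p = 0.105) or replicate 3 (adjusted p = 0.102). Fzd10 at 7.99 in all arrays was not told apart from it with the second prior (adjusted p = 0.483).

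The other Frizzled receptors were under the limit in all arrays. Fzd3, an axon guidance receptor, was at 7.19 and Fzd2 at 7.44 in every array (adjusted p = 0.000482 and 0.00171 with the second prior). Fzd8 measured 7.53, 7.53 and 7.42 (adjusted p = 0.00434), a call lost without replicate 1 (adjusted p = 0.0726) or replicate 2 (adjusted p = 0.0751). Fzd1 at 7.80, 7.82 and 7.82 was below it with the first prior only (adjusted p = 0.00228, and 0.105 with the second).

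Of the co-receptors and other receptors 5 of 6 were at or above the limit in every array, and limma called the same number above it under both priors. Lrp6 measured 10.04, 10.02 and 10.07, a mean of 10.04 ± 0.03 (SD, n = 3) and 4.27-fold over the limit (adjusted p = 3.52e-05). Lrp5, its paralog, which in humans is mutated in a disease of the retinal vessels, was at 9.75 in all arrays, 3.48-fold over it (adjusted p = 4.77e-05 with the second prior). Each of the alternative co-receptors of canonical signalling was thus at least 2-fold over the limit.

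Reck, the membrane-anchored protein that recognises WNT7 ligands, was at 9.84 in all 3 arrays, 913 units and 3.7-fold over the limit (adjusted p = 4.35e-05 with the second prior). Ryk, a Wnt receptor with an inactive kinase domain, measured 9.93, 9.93 and 9.94, 3.95-fold over it (adjusted p = 3.11e-06, and 4.02e-05 with the second prior). The kinase-type receptors of the ROR family lay on opposite sides. Ror2, which binds WNT5A, measured 8.39, 8.42 and 8.42 (adjusted p = 0.000294), and Ror1 was at 7.67 in every array, below the limit (adjusted p = 0.0121 with the second prior).

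β-catenin and its destruction complex were above the background limit in every array, all 4 genes under both priors. Ctnnb1, which encodes β-catenin, the pathway's effector and also a part of adherens junctions, measured 11.57, 11.01 and 11.25. The mean was 11.28 ± 0.28 (SD, n = 3), 2483 units and 10.1-fold over the limit (adjusted p = 0.00152), although without replicate 3 the test no longer passed (adjusted p = 0.0541). Every array of Ctnnb1 was above the limit by more than 3 log2 units. Apc, a scaffold of the complex, was at 9.78 in every array, 3.55-fold over it (adjusted p = 4.63e-05 with the second prior).

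Axin1, the limiting scaffold of the complex, measured 8.80, 8.80 and 9.02 (adjusted p = 0.00415), a call lost without replicate 1 (adjusted p = 0.0718) or replicate 2 (adjusted p = 0.0727). Axin2, its paralog and a widely used target gene of the pathway, measured 8.83, 8.97 and 9.06, a mean of 8.95 ± 0.12 (SD, n = 3) and 2.0-fold over the limit (adjusted p = 0.00293). All 3 arrays of Axin2 were above the limit, and without replicate 2 the test no longer passed (adjusted p = 0.0735).

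The nuclear factors were at least 2-fold over the limit in every array, and each held 1 value. Tcf7l2 was at 10.54 (1487 units, 6.03-fold), Tcf7l1, which acts mainly as a repressor, at 9.92 (971 units, 3.93-fold) and Lef1 at 9.15 (567 units, 2.3-fold), with adjusted p of 2.88e-05, 4.03e-05 and 0.000124 with the second prior. Apcdd1, a membrane inhibitor of the pathway that is itself a target gene in brain endothelium, measured 8.79, 8.79 and 8.84 (adjusted p = 0.000181). The other TCF factor, Tcf7, was not analysed here.

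TCF/LEF factors bind DNA at a short site, so promoters of the genes were searched for it. The search took the 250 bases before each promoter's start in RefSeq's GRCm38.p6 annotation, where a gene can have several promoters. It used 4 forms of the site on either strand. They are written CTTTGAA and, with another last base, CTTTGAT, as well as CTTTGTA and, again with another last base, CTTTGTT. No pair of these forms can match the same 7 bases. Of the 62 Wnt genes 41 were matched, with 50 promoters, and 7 of these promoters (14%) held a match, against 14.8% of all 32851 promoters of that length. They belonged to Dkk1, Fzd7, Lef1, Reck, Tcf7l2, Wnt11 and Wnt5b, of which Dkk1 held 2 matches. Promoters of Lef1, Tcf7l2 and Axin2 are shown because these are the nuclear factors that read the signal and its best known target. Lef1 had 4 promoters in the annotation and Tcf7l2 had 2, of which 1 each held a match and is shown. These 2 were thus picked for their match and need not be the main promoter of the gene. A start named below is that of the promoter shown. The sequences run 5′ to 3′ on the gene's strand, with the match in capitals and the rest in lower case. Each lies on the plus strand.
Lef1, chr3:131156044-131156293: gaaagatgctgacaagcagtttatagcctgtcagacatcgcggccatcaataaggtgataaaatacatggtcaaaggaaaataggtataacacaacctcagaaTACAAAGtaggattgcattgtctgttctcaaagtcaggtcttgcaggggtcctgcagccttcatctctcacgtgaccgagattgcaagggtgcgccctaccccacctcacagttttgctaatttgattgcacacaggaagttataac
Tcf7l2, chr19:55895071-55895320: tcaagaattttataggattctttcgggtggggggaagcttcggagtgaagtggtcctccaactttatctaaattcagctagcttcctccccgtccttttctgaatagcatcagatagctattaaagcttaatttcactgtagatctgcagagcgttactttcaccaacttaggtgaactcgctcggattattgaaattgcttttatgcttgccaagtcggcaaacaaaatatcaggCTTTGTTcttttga
Axin2, chr11:108920099-108920348: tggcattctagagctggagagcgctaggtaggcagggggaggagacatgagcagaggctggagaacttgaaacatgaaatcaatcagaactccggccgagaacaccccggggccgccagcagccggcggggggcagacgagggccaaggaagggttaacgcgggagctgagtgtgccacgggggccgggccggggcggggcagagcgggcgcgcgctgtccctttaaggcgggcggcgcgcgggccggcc
The match TACAAAG in the Lef1 promoter is the reverse complement of CTTTGTA and begins 147 bases before the start. The match CTTTGTT of Tcf7l2 begins 14 bases before it. In the Axin2 promoter none of these letters was found, and that window is only the bases next to the start. A match is a run of letters and not a measured binding site.

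Secreted inhibitors were the role with the lowest share past the limit, with 2 of 10 at or above it in every array and a median of 7.60. Dkk2, which in the Dickkopf family binds LRP6 and can act for or against the pathway, was the exception. It measured 9.34, 9.63 and 9.90, a mean of 9.63 ± 0.28 (SD, n = 3) and 3.2-fold over the limit (adjusted p = 0.00627). All 3 arrays of Dkk2 were clearly above the limit. The spread was wide enough that the test did not pass without replicate 2 (adjusted p = 0.104) or replicate 3 (adjusted p = 0.0615).

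Dkk1, the classical inhibitor of LRP6, was at 7.99 in every array and was not told apart from the limit with the second prior (adjusted p = 0.483), a value that it had in common with Fzd10. Dkk3 at 7.73 and Wif1, which binds Wnts directly, at 7.72 were below it (adjusted p = 0.0261 and 0.0241 with the second prior). The Frizzled-related decoys, which bind Wnts outside the cell, were all below it. Sfrp1 was at 7.22, Sfrp2 at 6.88, Sfrp4 at 6.71 and Sfrp5 at 7.47 in every array, with the highest of their adjusted p at 0.00211 with the second prior. Frzb measured 6.50, 6.56 and 6.56, 93 units in the mean and under 100 units in every array. With the limit at the 90th percentile of the olfactory, vomeronasal and bitter taste receptors, log2 7.61, limma called Dkk3, Dkk4 and Wif1 above it.

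R-spondins strengthen Wnt signals by binding LGR receptors and removing the ligases RNF43 and ZNRF3, which take Frizzleds off the surface. None of these 9 genes reached 2-fold over the limit, and their median was 7.71. Rspo1 measured 8.20, 8.21 and 8.21, 1.2-fold over the limit (adjusted p = 6.8e-06, and 0.0154 with the second prior). Rspo2 at 7.32 and Rspo3 at 6.74 in every array, and Rspo4 at 7.33, 7.39 and 7.39, were below it. Rspo3, an R-spondin that mouse endothelium makes in other organs, was 107 units here, 0.43-fold of the limit (adjusted p = 0.000122 with the second prior).

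Of the LGR receptors, Lgr5 and Lgr4 differed between arrays and Lgr6 did not. Lgr5, a stem cell marker in mouse gut, measured 8.28, 8.95 and 8.46, above the limit in every array, with a mean of 8.56 ± 0.34 (SD, n = 3). It was not told apart from the limit with the first prior (adjusted p = 0.0726) and was above it with the second (adjusted p = 0.0202). Lgr4 measured 6.77, 6.77 and 7.18, under the limit in every array (adjusted p = 0.0119), and that call was lost without replicate 1 (adjusted p = 0.128) or replicate 2 (adjusted p = 0.131). Lgr6 was at 8.04 in all arrays (adjusted p = 0.21 with the second prior). Of the ligases, Rnf43 at 8.03, 8.07 and 8.07 passed with the first prior (adjusted p = 0.0113) and not with the second (adjusted p = 0.161). Znrf3 measured 7.50, 7.81 and 7.80, under the limit in every array, and was not told apart from it (adjusted p = 0.119).

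**Figure D2:**
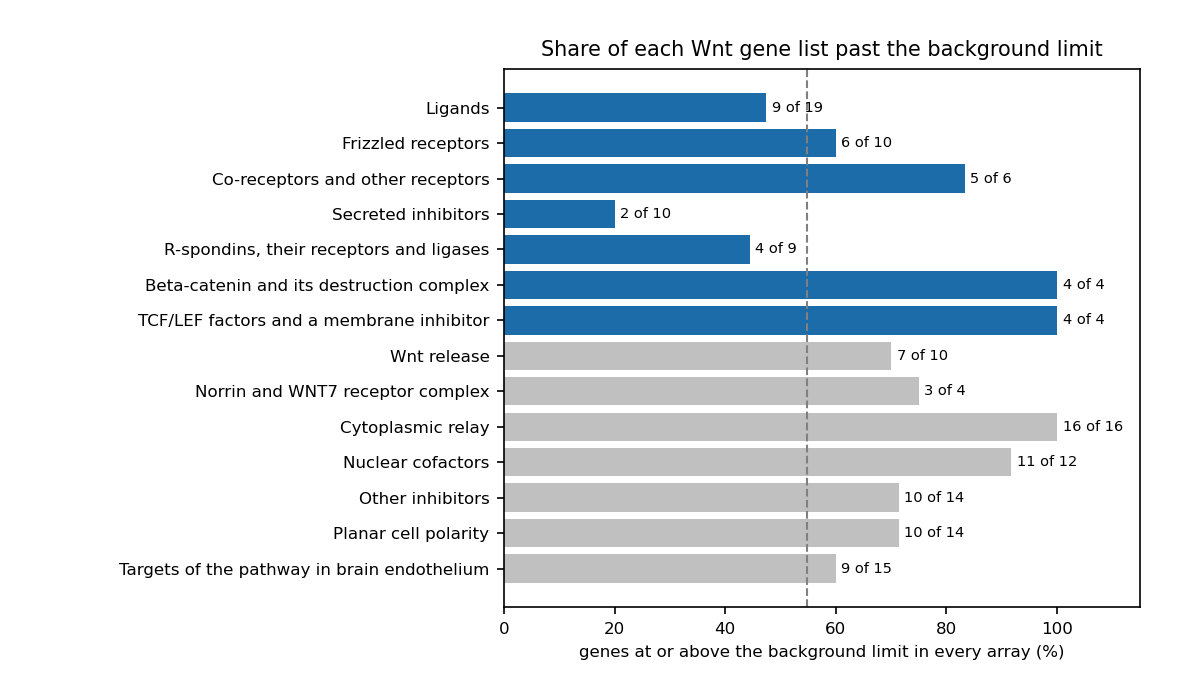
Share of the genes of each list that were at or above the background limit in every array (%), with the Wnt genes by role in blue and lists of other pathway genes in grey. The dashed line marks the 54.8% of all genes; the lists run between 2 of 10 for secreted inhibitors and 4 of 4, 4 of 4 and 16 of 16 for the β-catenin, TCF/LEF and cytoplasmic relay lists.

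Other genes of the pathway were counted from lists that leave out the genes above, apart from the last list. Of 10 genes of Wnt release 7 were at or above the background limit in every array. Wls, the carrier of Wnts to the cell surface, measured 9.89, 9.92 and 9.92 (adjusted p = 1.25e-05), and Porcn, the enzyme that adds their lipid, 8.54, 8.81 and 8.71 (adjusted p = 0.00775). Both were above the limit in all arrays. Tmed2, a cargo receptor of the secretory path, measured 10.94, 10.96 and 10.91, and Notum, the enzyme that removes the lipid, was at 8.08 in every array, not told apart from the limit with the second prior (adjusted p = 0.0961).

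The list for the Norrin and WNT7 receptor complexes of brain and retinal endothelium held 4 genes, and 3 were past the limit. Tspan12, which works with FZD4, measured 12.08, 12.00 and 12.00, 4167 units in the mean (adjusted p = 2.73e-05). Adgra2, which encodes GPR124, the partner of RECK, was at 8.40 in every array (adjusted p = 0.00247 with the second prior), and its relative Adgra3 at 8.42 (adjusted p = 0.00217 with the second prior). Ndp, which encodes the ligand Norrin, was at 6.63 in every array, 99 units and below the background limit (adjusted p = 9.88e-05 with the second prior). The receptors of the Norrin complex, Fzd4, Lrp5 and Tspan12, were thus above the limit while its ligand was below it.

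All 16 genes of the cytoplasmic relay were at or above the limit in every array, and limma called 16 of 16 above it under both priors. Among them the Dishevelled genes, which carry the signal inside from the receptor, measured 8.76, 9.00 and 9.00 for Dvl1, 8.30 in all arrays for Dvl2, and 9.47, 9.42 and 9.42 for Dvl3. Gsk3a, a kinase that marks β-catenin for destruction, measured 10.12, 10.12 and 10.20. Of 12 nuclear cofactors 11 were past the limit. Bcl9 at 9.55, 9.28 and 9.28, Bcl9l at 9.35 and Pygo2 at 8.23, 8.24 and 8.23 were above it, and Pygo1 at 7.54, 7.74 and 7.56 was below it (adjusted p = 0.0259), so that a Pygopus paralog lay on each side.

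Of 14 inhibitors outside the main families 10 were past the limit. Kremen1, a receptor for Dickkopf proteins, was at 8.48 and Sost, best known from bone, at 8.52 in every array (adjusted p = 0.00144 and 0.00118 with the second prior). Kremen2 measured 8.17, 8.21 and 8.21, and Sostdc1 8.50, 8.34 and 8.22. Of 14 planar cell polarity genes 10 were past it, among them Vangl1 at 9.31, 9.31 and 9.10 and Celsr1 at 8.91 in every array. Vangl2 at 8.11 and Celsr2 at 8.04, 8.04 and 8.13 were past it too, but were not told apart from it with the second prior (adjusted p = 0.064 and 0.13).

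The last list had 16 genes, 15 of them measured here, known as targets of the pathway in mouse brain endothelium, of which 9 of the 15 were at or above the limit in every array, 60% beside 54.8% of all genes. It includes Apcdd1, Lef1 and Axin2, described above. Sox17, an endothelial transcription factor, measured 10.18, 10.18 and 10.06, and Cldn5, a tight junction protein, and Slc2a1, the glucose transporter GLUT1, were at 9.84 and 10.39 in every array. Mfsd2a, a lipid transporter of the blood-brain barrier, was at 7.72 in every array and below the limit (adjusted p = 0.0234 with the second prior).

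**Figure D3:**
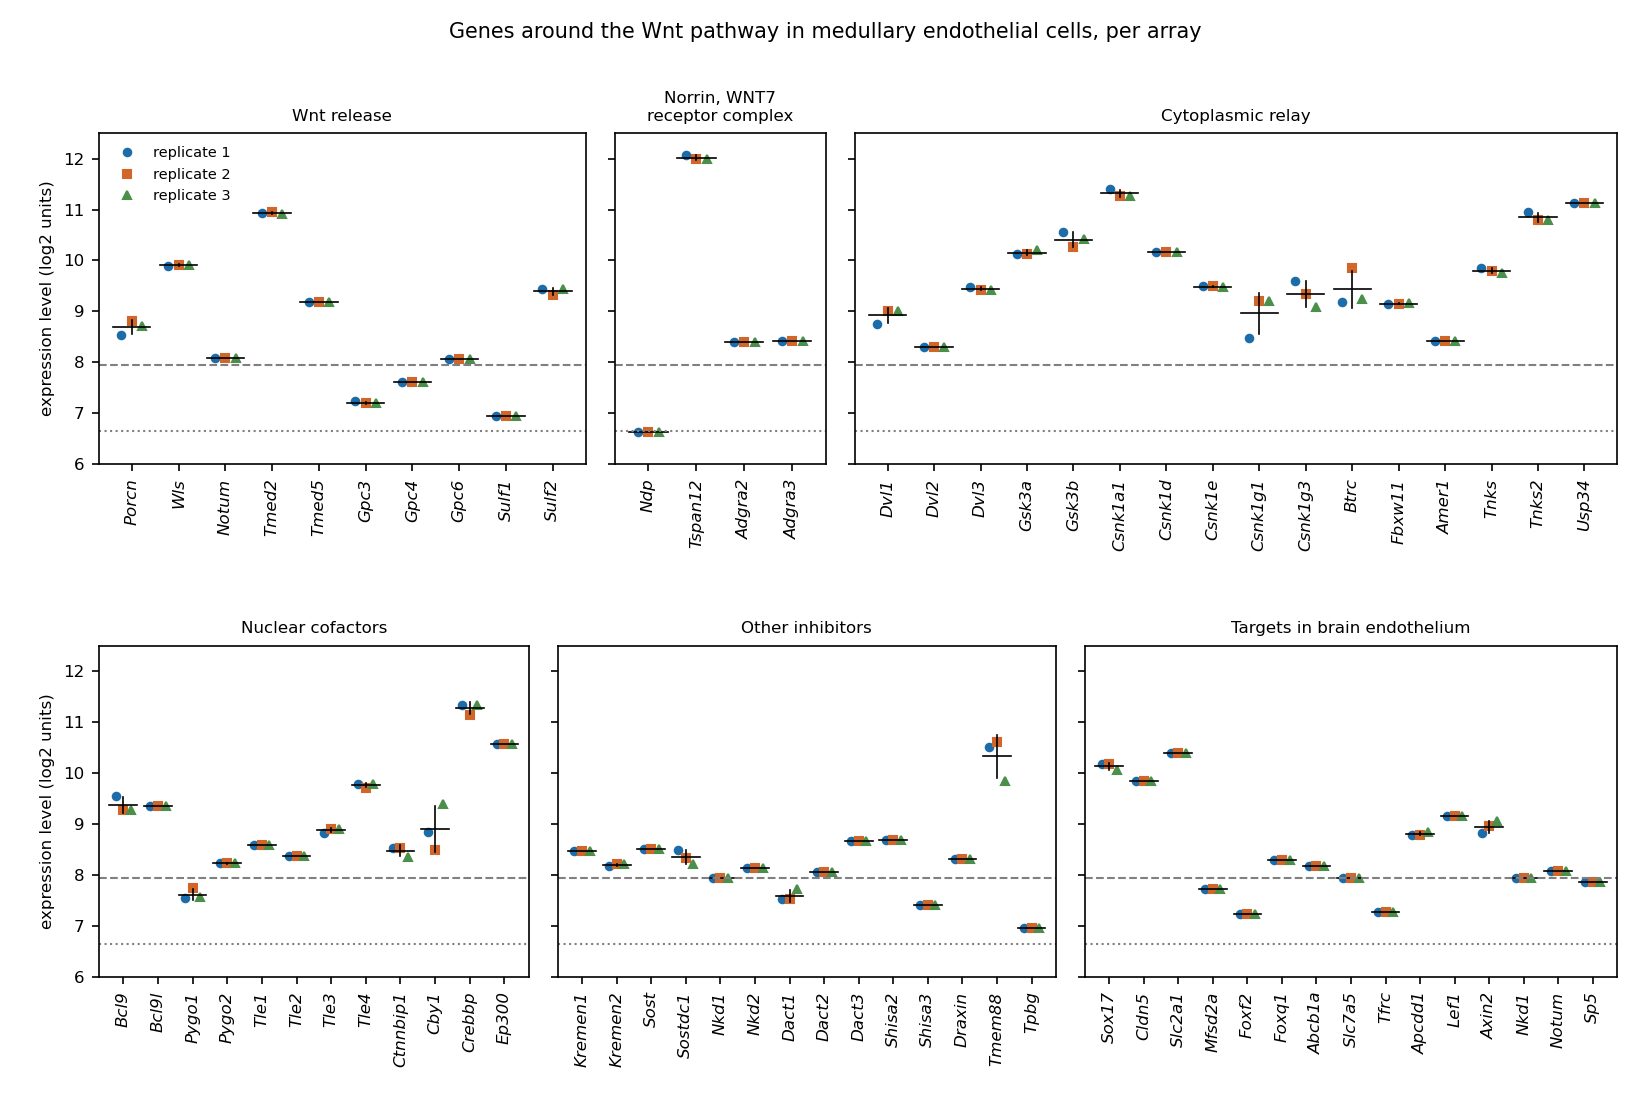
Expression level (log2 units) in each array of the other genes of the pathway, in panels by list, without the planar cell polarity list. Points are arrays, horizontal bars are means and vertical bars are SD (n = 3), with the dashed line at the background limit of 7.95 and the dotted line at 100 units. Tspan12 lies near 12 and Ndp near the dotted line, and the 16 relay genes all lie above the dashed line.

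Between arrays the deposited values of the Wnt genes changed little, and 33 of the 62 held the same value in every array. Whether these repeats hide a change was not tested. The summed raw level of the Wnt genes was 25767, 25368 and 26004 units. By role, the highest sum was 1.00-fold of the lowest for the TCF/LEF group and up to 1.24-fold for β-catenin and its destruction complex. A range of at least 0.5 log2 units was found in 3 of 62 Wnt genes, as in 7.44% of all genes, and these were Lgr5 (range 0.66), Dkk2 (0.56) and Ctnnb1 (0.56). No Wnt gene had such a range without replicate 1, 1 had it without replicate 2 and 2 had it without replicate 3. Among genes whose arrays differed at all, the median range was 0.07 over 29 Wnt genes and 0.14 over all 10708 genes.

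Of the 29 Wnt genes that differed, replicate 1 was alone the lowest array for 19, and replicate 2 and replicate 3 for 2 and 1. Replicate 3 was alone the highest for 13. Over all 10708 genes that differed, the lowest array was replicate 1 for 3038, replicate 2 for 2298 and replicate 3 for 2276. The highest array was replicate 1 for 2628, replicate 2 for 2483 and replicate 3 for 2766. Repeated values enter these counts, since genes such as Wnt2 and Wnt4 had the same deposited value in replicates 2 and 3. The counts were not tested. The sizes were small, since over all 62 Wnt genes replicate 1 was on average 0.04 log2 units under the other arrays. Ctnnb1 and Fzd4 were the genes for which replicate 1 was alone the highest.

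**Figure D4:**
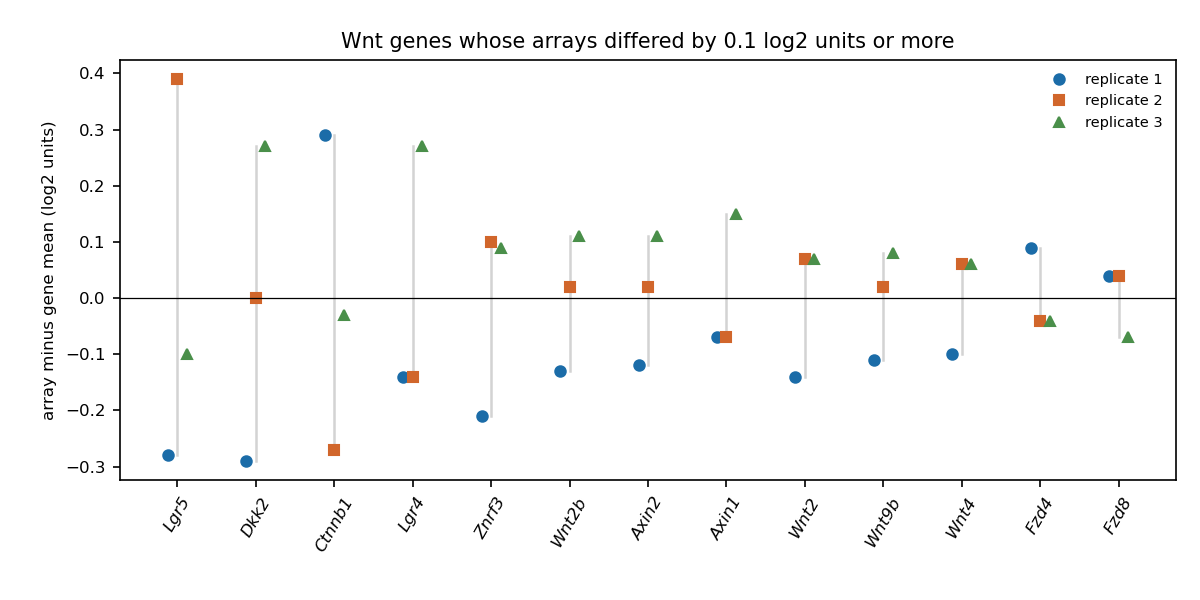
Each array's level minus the mean of the gene (log2 units) for the 13 Wnt genes whose arrays differed by 0.1 log2 units or more. Points are the 3 arrays and the horizontal line is the mean of the gene. Lgr5 is highest in replicate 2, Dkk2 in replicate 3 and Ctnnb1 in replicate 1, and 8 of the 13 genes have replicate 1 alone as their lowest array.

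The arrays also differed in markers of other cells. All 10 endothelial markers were past the background limit in every array, with Pecam1 at 12.53, 12.38 and 12.40 and Cdh5 at 12.92, 12.65 and 12.57. Thick ascending limb markers summed to 6094, 3756 and 2889 units, with 6 of 8 past the limit. Umod alone measured 11.61, 10.40 and 9.49. The 8 markers did not move together. Replicate 1 was alone the highest for 3 of them and replicate 2 for 1, and Kcnj1 was at 8.84 in every array. Antigen presentation genes summed to 4196, 8032 and 4527 units, with 5 of 6 past the limit. Endothelial markers summed to 53279, 48224 and 49001 units. Ctnnb1 was highest in replicate 1, as the summed endothelial and the summed thick ascending limb markers were. It ordered the other arrays as the endothelial sum did, but the single endothelial markers had no common order there. Of them 3 were alone lowest in replicate 2 and 3 in replicate 3. Lgr5 was highest in replicate 2, as 5 of the 6 antigen presentation genes were, while H2-Eb1 was highest in replicate 3. The part of any of these cells in the levels of Ctnnb1 and Lgr5 was not tested.

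Markers of the collecting duct, the tubule in which Wnt7b is known, summed to 3650, 3593 and 3305 units with 5 of 14 past the limit and Aqp2 at 9.67, 9.67 and 9.27. Of the other lists, the limit was passed by 3 of 10 smooth muscle and pericyte markers, 2 of 8 fibroblast, 2 of 9 proximal tubule, 3 of 5 podocyte, 2 of 9 myeloid, 1 of 6 lymphocyte and 2 of 4 red cell and platelet markers. These counts are over the genes measured here, which left out 1 listed fibroblast, 1 podocyte, 2 lymphocyte, 1 antigen presentation and 2 red cell and platelet genes. Markers of 1 list lay on both sides. In every array Acta2 at 7.56, Pdgfra at 7.61 and Ptprc at 6.68 were under the limit, while Col1a1 of the fibroblast list was at 8.81 and over it. Of the smooth muscle and pericyte list 6 of 10 markers were under the limit in every array. From that list Notch3 at 8.51 in every array and Mcam at 9.77, 9.82 and 9.77 were over it, both named after their values were seen. Their summed levels over the arrays were 2943 to 2991 units for smooth muscle and pericyte and 1489 to 1490 units for fibroblast markers. Their part in the levels of Wnt4, Wnt7b and Dkk2 was not tested. In a sorted bulk sample, fewer cells that express a gene and less RNA in each cell cannot be told apart.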

How the data were processed

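RNA of each pool was amplified in 1 round with the WT-Ovation Pico kit and hybridised to 1-colour Affymetrix Mouse Gene 1.0 ST arrays. The deposited values are log2 levels per probe set, which, per the study's methods, the authors summarised with RMA (background correction, quantile normalization, median polish). Many values repeat between arrays and between probe sets, and a later step is not described in the sources used here. The study's methods name GeneSpring GX and the submitters' processing notes name Affymetrix Expression Console, and the sources used here do not say which of them made these values. They give no genome build for the array's annotation.

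Of 35557 probe sets, 21789 had 1 gene, 1621 several and 12147 none in the platform annotation, and 21698 (99.6%) were matched to RefSeq symbols through Entrez IDs. Probe sets with several genes or none were not used. The array medians were 8.00, 8.03 and 8.03, the lowest and highest values 3.55 and 14.4, and Pearson's r between arrays, across probe sets, 0.964 to 0.966. All 3 arrays formed 1 group, with replicate numbers from the labels.

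For each of 19938 genes limma 3.58.1 (R 4.3.3) fitted the mean of the log2 level minus a limit, with eBayes, two-sided, and the Benjamini-Hochberg adjustment over all genes at 0.05. A call at or above a limit without a test needed all 3 arrays. Every Wnt gene was named, and of each other list up to its first 4 measured genes. The genes and lists were chosen with earlier results of these data known. Alternatives were other limits, probe set rules, quantile normalization, eBayes with trend, the prior from genes with 3 different values, other ranges, and each array left out. The test was also run on simulated data, but its outcome is not reported here. No conclusion about the p-values is drawn from that run, least of all for genes with the same value in every array. Tables and plots used Python 3.11.15, pandas 2.3.3, numpy 2.4.6 and matplotlib 3.10.9.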

Additional observations from a re-analysis of the deposited data

How the results depend on the processing

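Counts moved with the limits. At the 99th percentile of the sensory receptors (log2 8.72, 422 units) 16 Wnt genes were at or above it in every array and limma called 14 above and 44 below, where the 95th percentile gave 34, 33 and 25. At the 90th percentile (7.61, 195 units) these counts were 42, 42 and 18. At a limit of 200 units 42 Wnt genes were at or above it in every array, where 61 were at 100 units. Limma called 1 Wnt gene below 100 units, 19 below 200 units, 0 below 50 units and 0 with the prior from genes with 3 different values, and 0 to 1 with an array left out. A range of at least 0.5 log2 units was found in 3 Wnt genes, one of at least 0.3 in 5 and one of at least 1 in 0, and leaving out an array gave 0 to 2. With an array left out, 34 to 36 Wnt genes were past the background limit in every array, 26 to 32 were called above it and 22 to 24 below. With an array left out a gene with 1 remaining value has no error of its own. Quantile normalization, eBayes with trend and the mean or the lowest of several probe sets kept every count over the Wnt genes within 1.5 times. Wnt4 was the only Wnt gene whose level moved by more than its SD with another probe set rule, by 0.95 with the mean and 1.91 with the lowest. No paired analysis was possible because the arrays form 1 group. Levels near the background limit cannot be read as expression or as its absence.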
